A study of Mus musculus with 6 samples.

Results

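Scinderin (Scin, also called adseverin) and 6 relatives of the gelsolin family were examined in haematopoietic stem cells (HSC) of wildtype and PU.1 knockdown mice. The members were Scin, Gsn, Capg, Avil, Vil1, Flii and Svil, 7 of the 18186 genes represented by a probe set with a single gene symbol on the array. They were found as every probe set whose only platform symbol was a member, which gave 16 of 44991 probe sets: 6 for Gsn, 3 for Flii, 2 each for Capg and Svil, and 1 each for Scin, Avil and Vil1. Scin was chosen because its difference between these same groups was among the most marked, so its values are given as a description without a test. The other 6 members were included for their kinship with it.

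HSC give rise to all blood lineages. They were sorted from bone marrow by flow cytometry, and each of 6 Affymetrix Mouse Genome 430 2.0 arrays held RNA pooled from 3 animals. The wildtype group had 3 pools and the PU.1 knockdown group had 3 pools, and both groups went through the same amplification, consisting of 2 rounds of reverse transcription and in-vitro transcription. The sources used here give neither strain and age nor the surface markers of the sort or the way in which PU.1 was reduced. PU.1 is the product of Spi1, a transcription factor gene of the ETS family without which myeloid and B lymphoid cells do not form.

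Many proteins of the gelsolin family bind the fast-growing end of actin filaments. Gelsolin and scinderin also cut filaments when calcium rises and let go of the filament end when they meet membrane phosphoinositides, so that a filament network can be dismantled and rebuilt. In blood cells this remodelling accompanies migration, phagocytosis, granule release and the shaping of platelets.

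The targeted gene was lower in the knockdown pools. Spi1 had deposited intensities of 1120, 718 and 1053 in wildtype pools 1 to 3 and of 362, 360 and 119 in knockdown pools 1 to 3, with knockdown pool 3 the lowest. The 13 genes analysed from a stem cell list, which include Cd48 and Ptprc, genes not particular to stem cells, all lay above the median of all probe sets in wildtype pools. Neutrophil granule genes were also bright in these sorted cells, 11 of 12 listed markers lying above that median. Array medians ran from 81.4 to 91.5, and Pearson correlations across probe sets were 0.955 to 0.973 between groups and 0.964 to 0.979 within them.

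The promoter sequences of Scin, Gsn and Capg, the 3 members with the largest differences below, are shown because PU.1 belongs to the ETS factors, which bind DNA words around GGAA. Windows of 250 bases before each RefSeq start (build GRCm38.p6, 5′ to 3′ on the strand of the gene) were searched on both strands for GAGGAA, the core of the PU.1 box, and GGAAGT, a general ETS core; the words can overlap each other. Capitals mark a match on either strand. Scin lies on the minus strand at chr12:40134229-40134478. Gsn has 3 windows on the plus strand, at chr2:35256109-35256358, chr2:35266494-35266743 and chr2:35282130-35282379, given in that order, and Capg 1 on the plus strand at chr6:72549397-72549646.
Scin: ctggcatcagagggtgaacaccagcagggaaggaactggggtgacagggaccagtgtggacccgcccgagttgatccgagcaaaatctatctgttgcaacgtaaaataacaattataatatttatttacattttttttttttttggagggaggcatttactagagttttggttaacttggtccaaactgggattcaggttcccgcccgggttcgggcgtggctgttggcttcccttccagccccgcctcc
Gsn, start 1: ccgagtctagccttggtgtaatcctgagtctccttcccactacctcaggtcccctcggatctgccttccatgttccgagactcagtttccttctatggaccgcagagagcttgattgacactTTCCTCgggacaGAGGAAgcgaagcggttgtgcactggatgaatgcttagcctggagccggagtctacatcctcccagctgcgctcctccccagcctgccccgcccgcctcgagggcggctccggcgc
Gsn, start 2: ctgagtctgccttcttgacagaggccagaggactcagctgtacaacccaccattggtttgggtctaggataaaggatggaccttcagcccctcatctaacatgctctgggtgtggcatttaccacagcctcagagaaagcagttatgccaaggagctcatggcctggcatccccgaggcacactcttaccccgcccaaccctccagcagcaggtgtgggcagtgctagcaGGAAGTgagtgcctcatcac
Gsn, start 3: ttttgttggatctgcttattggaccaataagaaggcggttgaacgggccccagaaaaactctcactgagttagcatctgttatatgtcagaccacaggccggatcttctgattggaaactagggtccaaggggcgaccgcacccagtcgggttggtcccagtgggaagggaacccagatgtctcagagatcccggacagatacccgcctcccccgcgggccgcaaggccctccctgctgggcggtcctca
Capg: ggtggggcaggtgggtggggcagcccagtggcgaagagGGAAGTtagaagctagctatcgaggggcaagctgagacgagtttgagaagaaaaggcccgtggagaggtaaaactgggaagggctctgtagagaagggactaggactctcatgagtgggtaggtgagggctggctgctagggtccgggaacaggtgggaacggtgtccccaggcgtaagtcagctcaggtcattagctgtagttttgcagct

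Neither word is in the Scin window, which says only that these letters are absent from these 250 bases. The window of Gsn start 1 holds GAGGAA once on each strand, with nearest edges 111 and 123 bases before the start, that of start 2 holds GGAAGT 15 bases before the start, and that of start 3 holds neither. The Capg window holds GGAAGT 207 bases before the start. Among the other members, the window of Avil had 1 GAGGAA, that of Vil1 had 3 GGAAGT and that of Flii had 2 GGAAGT, while the promoter of Svil was not analysed here. Over 32851 windows of the same length, 23.25% held GAGGAA, 19.74% GGAAGT and 36.74% either. A match is a run of letters and does not show binding, and the array does not tell the Gsn starts apart.

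Scin, which severs and caps filaments and is best known from secretory cells, where it loosens the cortical actin ahead of granule release, was higher in every knockdown pool than in any wildtype pool. On its only probe set, 1450276_a_at, the deposited intensity was 104, 73.2 and 126 in wildtype pools 1 to 3, and 240, 280 and 485 in knockdown pools 1 to 3. The means were 101 ± 26.4 and 335 ± 131 (SD, n = 3 pools per group). The lowest knockdown pool thus lay above the highest wildtype pool. Knockdown pool 3, the pool with the least Spi1 signal, had the most Scin signal. Among wildtype pools the order was the reverse, as pool 2 had the least Spi1 and also the least Scin signal. Knockdown pools 1 and 2 had nearly equal Spi1 signal, at 362 and 360, with Scin at 240 and 280.

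On the log2(intensity + 16) scale after quantile normalisation, Scin averaged 6.81 ± 0.35 in wildtype and 8.42 ± 0.44 in knockdown pools. The difference, knockdown minus wildtype, was 1.61 (SE 0.26), or 3.05-fold. All log2 values and differences below are on this scale, which understates the folds of dim probe sets. Without any 1 pool, the Scin difference stayed between 1.36 and 1.78.

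Gsn, the founding member, severs and caps filaments in nearly all cell types and has a secreted form in blood plasma made from the same gene. Its difference had the opposite sign to that of Scin. On 1456312_x_at, its brightest probe set, the deposited intensity was 515, 281 and 378 in wildtype pools 1 to 3 and 161, 206 and 242 in knockdown pools 1 to 3. Every knockdown pool lay below every wildtype pool, and wildtype pool 1 was the brightest.

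The wildtype mean of this probe set was 8.59 ± 0.46 and the knockdown mean 7.80 ± 0.19, and they differed by -0.80 (SE 0.24, 95% interval -1.35 to -0.24). It did not pass limma's test (Benjamini-Hochberg adjusted p = 0.576 over all probe sets), with an exact permutation p of 0.1, the lowest possible for 3 pools against 3.

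Of the 6 Gsn probe sets, 5 were lower in the knockdown pools without overlap between the groups, with differences from -0.83 to -0.69, corresponding to 1.61-fold to 1.78-fold higher signal in wildtype. The one annotated to the RefSeq transcript, 1415812_at, had deposited intensities of 323, 232 and 283 in wildtype pools 1 to 3 and 168, 130 and 164 in knockdown pools 1 to 3. It differed by -0.71 (SE 0.19). Limma's adjusted p (Benjamini-Hochberg over all probe sets) was 0.486 to 0.588 for these 5. They read the same RNA and are not replicates of one another, and those ending in _x_at can contain probes that match other transcripts, as can those ending in _s_at.

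The remaining Gsn probe set, 1456568_at, was close to 0 on every array, from -4.06 to 16.3 deposited units, and differed by 0.025 (SE 0.26). The platform annotation gives it the same source transcript as 1456569_x_at, which had intensities from 105 to 280 and differed by -0.69 (SE 0.21).

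**Figure D1:**
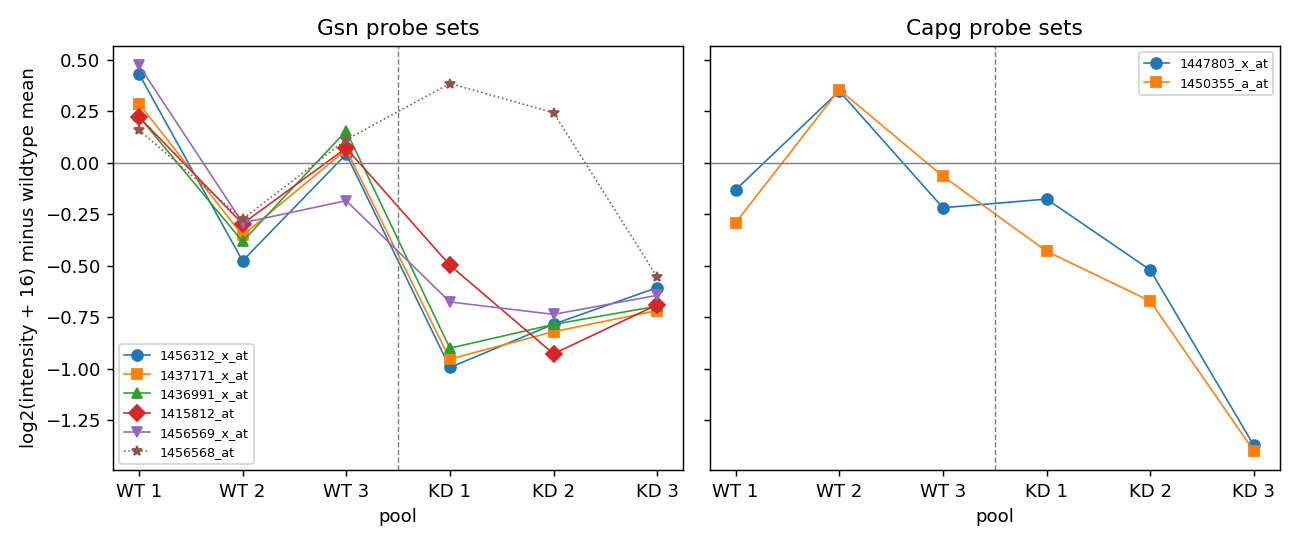
Log2(intensity + 16) of each Gsn probe set (left) and each Capg probe set (right) in 6 pools, as the distance from that probe set's mean over the 3 wildtype pools (WT); KD marks PU.1 knockdown pools, lines join the points of 1 probe set and imply no order, and the dotted line is the dim Gsn probe set 1456568_at. The 5 brighter Gsn probe sets lie below their wildtype mean in all knockdown pools, and both Capg probe sets are highest in wildtype pool 2 and lowest in knockdown pool 3.

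Capg, which caps filaments without cutting them and is abundant in macrophages, was also dimmer in the knockdown pools on average. On 1450355_a_at the deposited intensity was 452, 754 and 515 in wildtype pools 1 to 3, and 357, 338 and 200 in knockdown pools 1 to 3. The groups did not overlap, and knockdown pool 3 again stood at the extreme.

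The difference of this Capg probe set was -0.83 (SE 0.28, 95% interval -1.48 to -0.19), with limma's adjusted p at 0.624. The brighter probe set, 1447803_x_at, read 678, 994 and 619 in wildtype pools 1 to 3 and 569, 513 and 276 in knockdown pools 1 to 3. Its groups were apart as deposited but overlapped after quantile normalisation, with wildtype pool 3 at 9.32 and knockdown pool 1 at 9.37 on the log2 scale. Its difference was -0.69 (SE 0.31, 95% interval -1.41 to 0.030; limma adjusted p = 0.715). Both Capg probe sets were highest in wildtype pool 2, where Gsn and Scin were at the lowest wildtype value on their brightest probe sets. Without knockdown pool 3 the Capg differences were -0.55 on 1450355_a_at and -0.35 on 1447803_x_at, and thus smaller than with all pools.

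The remaining 4 members showed no difference past the spread of the pools. Flii, which joins gelsolin repeats to leucine-rich repeats and also acts as a coactivator of nuclear receptors, had deposited intensities of 1101, 1214 and 1046 in wildtype pools 1 to 3 and of 1232, 1154 and 1285 in knockdown pools 1 to 3 on 1448189_a_at. The groups overlapped, and the difference was 0.18 (SE 0.14, 95% interval -0.14 to 0.50). Its second probe set, 1416044_at, differed by 0.14 (SE 0.15), and the dim 1439356_at by -0.14 (SE 0.21), a sign that turned without wildtype pool 2.

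Svil, encoding supervillin, a large membrane-bound member that also binds myosin, read 1125, 955 and 1036 in wildtype pools 1 to 3 and 821, 849 and 1065 in knockdown pools 1 to 3 on 1460694_s_at. Knockdown pool 3 lay within the wildtype range. The difference was -0.12 (SE 0.15, 95% interval -0.48 to 0.24), and that of its other probe set, 1460735_at, was -0.12 (SE 0.16).

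Vil1, the villin of intestinal and kidney microvilli, and Avil, the advillin of sensory neurons, are known from tissues outside the blood. Vil1 was dim in all pools, from 58.1 to 77.9 deposited units, and differed by -0.07 (SE 0.15, 95% interval -0.42 to 0.28). Avil ranged from 83.2 to 144 in wildtype and from 89.5 to 116 in knockdown pools and differed by 0.058 (SE 0.19, 95% interval -0.38 to 0.50), a sign that turned with the values as deposited. For these 4 genes limma's adjusted p lay between 0.833 and 0.966 on their brightest probe sets, and the intervals leave room for differences of up to 0.5 in either direction. Vill, a villin-like relative outside the chosen members, differed by -0.16 (SE 0.28).

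**Figure D2:**
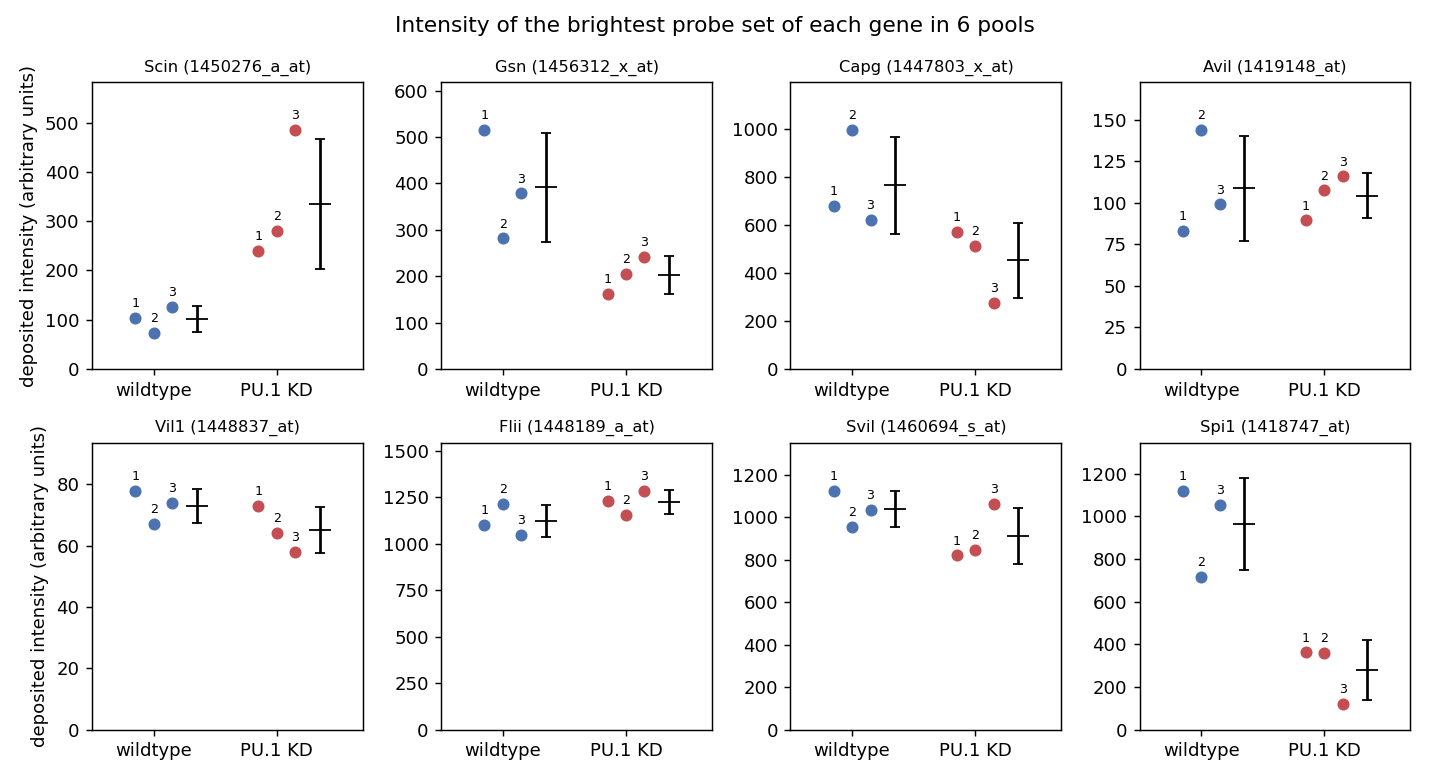
Deposited intensity (arbitrary units, linear axis from 0) of the brightest probe set of each member and of Spi1 in the 3 wildtype and 3 PU.1 knockdown pools, numbered by pool, with mean and SD beside each group. Scin is higher (240 to 485 against 73.2 to 126), Gsn and Spi1 lower in all knockdown pools, and Avil, Vil1, Flii and Svil overlap between the groups.

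Across the family, 0 of 16 probe sets were called by limma (Benjamini-Hochberg adjusted p under 0.05), and so were 0 of all 44991, or 0% (smallest adjusted p 0.171). At an unadjusted p under 0.05, 6 of the 15 probe sets other than that of Scin were called, all lower, where 3.33% of all probe sets were called lower and 7.11% in either direction. The same number, 6 of 15, had groups that did not overlap, all lower, beside 5.26% of all probe sets lower and 12.9% in either direction. These 6 come from only 2 genes, Gsn with 5 and Capg with 1. Counted by gene, with the brightest probe set standing for each, 1 of the 6 members other than Scin had groups that did not overlap, beside 13.8% of all genes, a share near the background. The median difference of these 6 genes was -0.097, beside 0.018 for all genes.

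**Figure D3:**
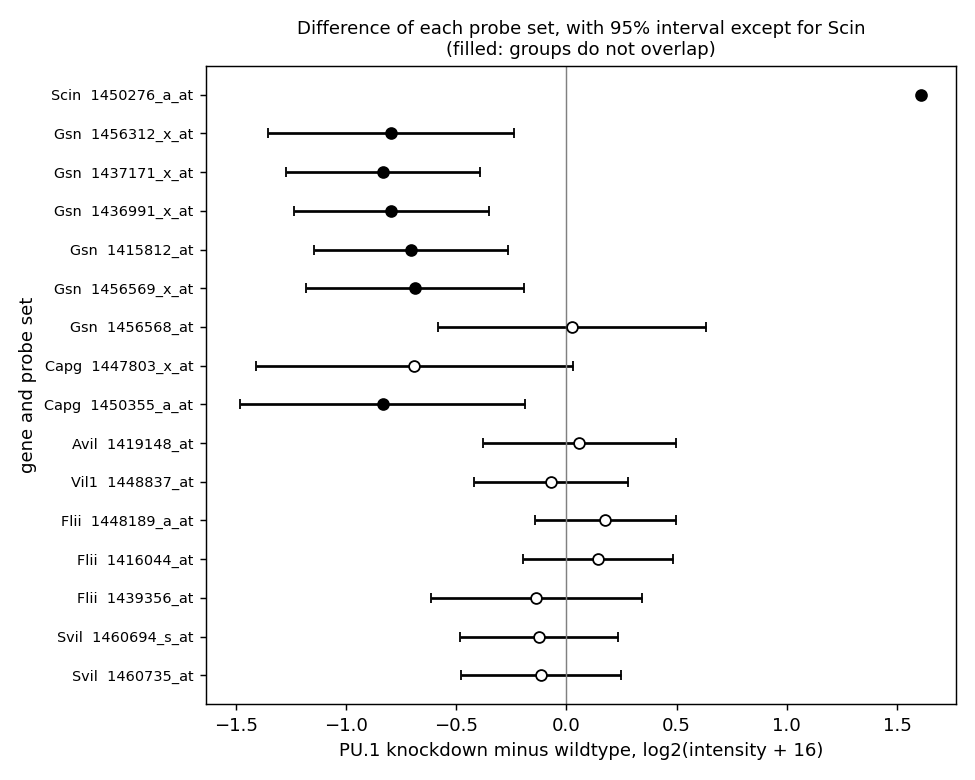
Difference between PU.1 knockdown and wildtype pools (log2(intensity + 16), horizontal axis) for each of the 16 member probe sets (vertical axis), with limma's 95% interval for all but Scin, which was chosen by this difference; filled points mark groups that do not overlap (n = 3 pools each). Scin stands at 1.61, the 5 brighter Gsn probe sets between -0.83 and -0.69, and the probe sets of Avil, Vil1, Flii and Svil have intervals that include 0.

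Other genes of actin turnover were counted from lists of 90 genes, 80 of which were matched. None is a member, and 0 of the 80 were called by limma after adjustment over all probe sets, while 2 were higher and 4 lower at an unadjusted p under 0.05, where 4.1% and 3.52% of all genes were. The groups did not overlap for 8 of them, 4 higher and 4 lower, beside 8.42% and 5.39% of all genes. The median difference of the 80 was -0.052 beside 0.018 for all genes. Of all genes, 46.6% had lower means in the knockdown pools, the share to set beside the counts below.

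Among genes for actin monomers, severing and capping, 10 of 29 had higher and 19 lower means in the knockdown pools (median -0.048). Wdr1, which helps cofilin to take filaments apart, read 1355, 1133 and 1061 in wildtype pools 1 to 3 and 762, 921 and 821 in knockdown pools 1 to 3, without overlap. Its difference was -0.43 (SE 0.15, limma adjusted p = 0.655). Eps8, an adaptor that caps filament ends, differed by -1.05 (SE 0.33) at low intensity, and Twf2, a twinfilin, by -0.43 (SE 0.20). Higher means were seen for Cap2, a cyclase-associated protein gene read at 81.7 units or less (0.77, SE 0.24), for Add1 (0.17, SE 0.14) and for Tmsb10 (0.15, SE 0.18). The groups of Cap2 touched on the deposited values, at 36.6 in wildtype pool 1 and 36.5 in knockdown pool 2.

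Nucleation and branching genes, which include the Arp2/3 complex and its activators, had 9 of 27 higher and 18 lower means (median -0.11). Nckap1l, the blood cell subunit of the WAVE complex, had 1 pool far from the rest, with deposited intensities of 2156, 2573 and 1697 in wildtype pools 1 to 3 and 1232, 1623 and 174 in knockdown pools 1 to 3. Its difference was -1.51 (SE 0.73). Diaph2, a formin gene, differed by -0.50 (SE 0.21) and Abi1 by -0.34 (SE 0.17), while Coro1b and Hcls1 had differences of 0.26 (SE 0.19) and 0.26 (SE 0.21).

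Bundling and crosslinking genes had 8 of 15 higher and 7 lower means (median 0.0081). Pls1, a plastin gene, differed by -1.29 (SE 0.49) with overlapping groups, Vcl by -0.52 (SE 0.26) and Actn1 by -0.45 (SE 0.27). Tagln2 and Myh9 had small differences of 0.24 (SE 0.14) and 0.22 (SE 0.14) without overlap. The groups of Myh9 overlapped on the deposited values, at 2848 in wildtype pool 1 and 2772 in knockdown pool 1. Of the phosphoinositide and calcium regulators, whose lipids and ions switch gelsolin proteins off and on, 5 of 9 were higher and 4 lower (median 0.038). Pip4k2a, a phosphoinositide kinase gene, differed by 0.39 (SE 0.15), and Plcb2 by -0.26 (SE 0.25).

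**Figure D4:**
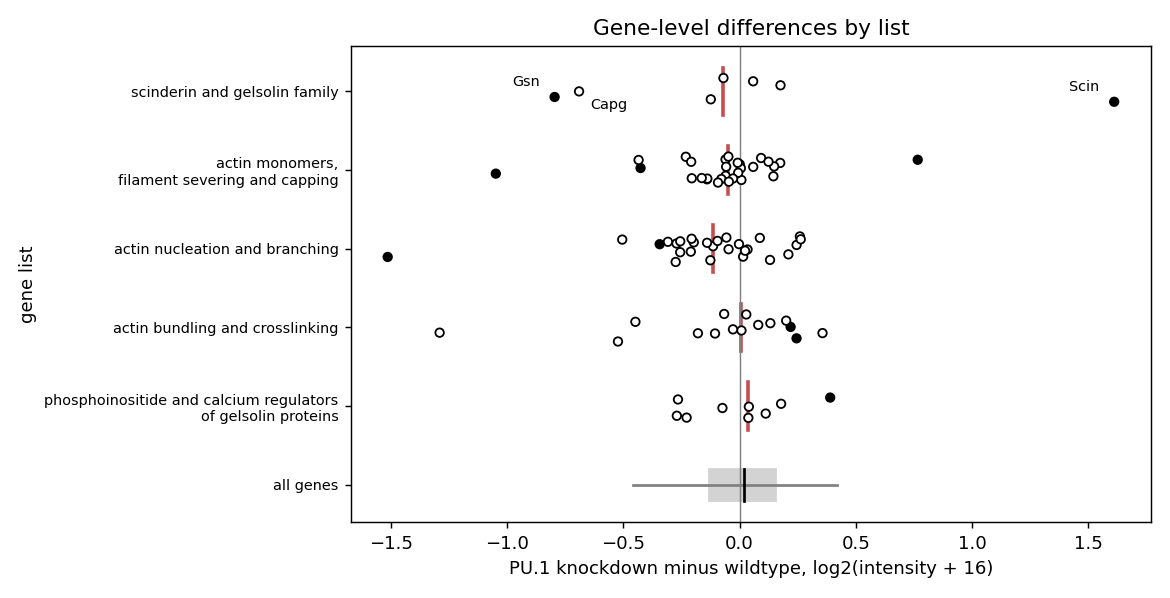
Difference between PU.1 knockdown and wildtype pools (log2(intensity + 16)) for each gene of the family and of 4 lists of actin regulators, 1 brightest probe set a gene; filled points mark groups that do not overlap, red lines are list medians, and for all 18186 genes the bar runs from the 25th to the 75th percentile and the line from the 5th to the 95th. Scin, which was chosen by this difference, lies at 1.61, to the right of every actin regulator shown. The list medians lie between -0.11 and 0.038.

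Markers of other blood cells also differed between the groups, and bulk arrays cannot tell fewer cells of a type from less RNA per cell. The counts of markers stand against 46.6% of all genes with lower means in the knockdown pools. Beside Scin, 9 of 10 mast cell and basophil markers were higher in the knockdown pools. Their summed intensity was 3177, 805 and 2631 in wildtype pools 1 to 3 and 2450, 2410 and 4895 in knockdown pools 1 to 3. It was lowest in wildtype pool 2 and highest in knockdown pool 3, the pools with the least and the most Scin. Unlike Scin, the sum was higher in wildtype pool 1 than in knockdown pools 1 and 2. Wildtype pool 2 also had the lowest wildtype sum of the megakaryocyte, monocyte, neutrophil, eosinophil and stromal lists. The 1 lower marker, Hdc, read 1721, 67.85 and 1497 in wildtype pools 1 to 3, a large part of the sums of wildtype pools 1 and 3. In knockdown pools 1 to 3 it read 449, 241 and 344. Cpa3, a mast cell carboxypeptidase gene, differed by 2.05 (SE 0.35) and Gzmb by 2.69 (SE 0.53). No marker of this list was at the floor of 1 unit on any array, but 4 of the 10 lay below the wildtype median. That median was taken over all probe sets. The part of the mast cell and basophil markers in the Scin difference was not tested.

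Beside Gsn, 11 of 12 megakaryocyte and platelet markers were lower, with a summed intensity of 9217 to 19524 in wildtype and 3549 to 9901 in knockdown pools. As in most marker lists, the lowest wildtype sum was in pool 2. Gsn was also lowest among wildtype pools there on its brightest probe set. The lowest knockdown sum was in pool 2, where Gsn was the lowest of the knockdown pools on 1415812_at but not on 1456312_x_at. Gp9 differed by -1.32 (SE 0.33) and Selp by -1.73 (SE 0.47). Stromal and endothelial markers, another known site of Gsn, had 7 of 13 higher and 6 lower means, with sums of 1453 to 5867 in wildtype and 1725 to 4337 in knockdown pools.

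Beside Capg, 10 of 11 monocyte and macrophage markers were lower, with sums of 5659 to 8487 in wildtype and 3894 to 6399 in knockdown pools. Knockdown pool 3 had the lowest sum and the lowest Capg, whereas wildtype pool 2 had the lowest wildtype sum and the highest Capg. Ctss differed by -1.27 (SE 0.39) and Cd14 by -0.96 (SE 0.29). The part of these markers in the Gsn and Capg differences was not tested either.

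The remaining marker lists had 9 of 12 neutrophil genes higher, 5 of 6 eosinophil genes lower and 3 of 5 epithelial genes lower. Neutrophil sums were 62192, 24244 and 51104 in wildtype pools 1 to 3 and 47816 to 61932 in knockdown pools, so that wildtype pool 2 stood apart while the other wildtype pools lay near the knockdown pools. Eosinophil sums were 2011 to 12683 in wildtype and 243 to 1214 in knockdown pools, and Ccr3 was the 1 marker of any list that reached the floor. Genes of the stem cell list were lower in 10 of 13 cases. Their sums were 12946, 23261 and 13376 in wildtype pools 1 to 3 and 12373 to 14498 in knockdown pools. Wildtype pool 2 was thus the highest here, while the other wildtype pools lay within the knockdown range. Tek differed by -0.99 (SE 0.21), and Cd48, which is not particular to stem cells, by 0.91 (SE 0.24). Of all these markers, 0 passed limma's test at an adjusted p under 0.05.

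The genes whose log2 values ran most like those of Scin over the 6 pools were Apoo (Pearson r 0.997), Ndufs7 (0.993), Ccr2 (0.992), Tmem184c (0.992) and Rapsn (0.990). Of 19198 probe sets compared, 46 had an r above 0.95. The 6 points share 2 groups and the same arrays, so r is only a description, and without wildtype pool 2, 0 of these 5 genes were among the first 5. Rapsn, whose product gathers acetylcholine receptors at the nerve and muscle junction, was similar in size as well as in pattern, with deposited intensities of 65.5, 61.6 and 111 in wildtype pools 1 to 3 and 227, 233 and 506 in knockdown pools 1 to 3. The difference was 1.83 (SE 0.31) for Rapsn and 0.18 (SE 0.13) for Ndufs7, a subunit gene of respiratory complex I. For Ccr2, a chemokine receptor gene of monocytes, it was 0.66 (SE 0.16) on a probe set that stayed at 151 units or less. The brightest Ccr2 probe set, which stood for the gene in the monocyte list, was lower in the knockdown pools.

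**Figure D5:**
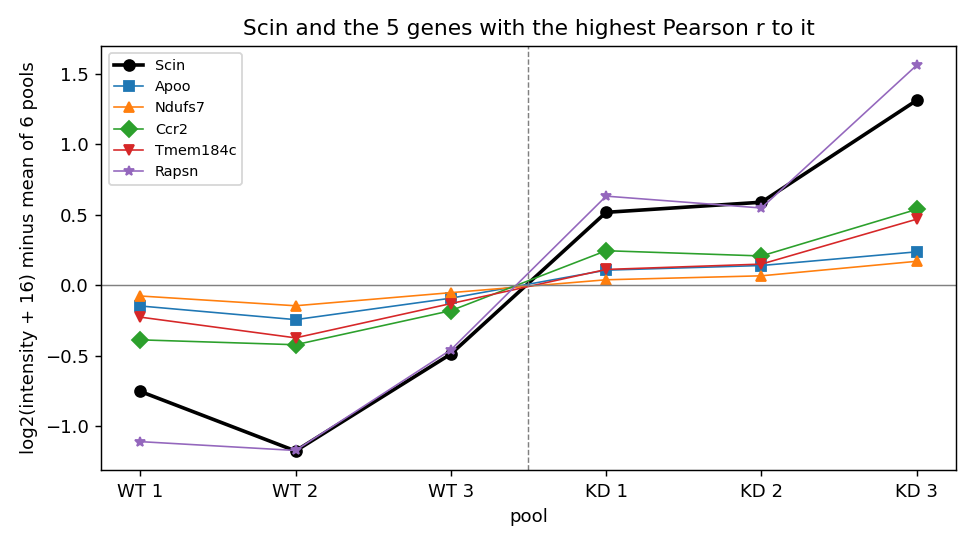
Log2(intensity + 16) of Scin and the 5 genes with the highest Pearson r to it, as the distance from each gene's mean over the 6 pools (WT wildtype, KD PU.1 knockdown); lines join the points of 1 gene and imply no order. On the probe sets shown, all 6 genes are lowest in wildtype pool 2 and highest in knockdown pool 3. Rapsn has a range like that of Scin.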

How the data were processed

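HSC RNA of 3 wildtype and 3 PU.1 knockdown pools was amplified and hybridised to 1-colour arrays, per the labels' protocols. The deposited table holds the authors' processed intensity per probe set on a linear scale; 264 to 409 values per array were below 0. The sources used here name no software, background correction or scaling. Values under 1 were set to 1, log2(value + 16) was taken and arrays were quantile normalised. All 44991 probe sets were fitted with lmFit and eBayes of limma 3.58.1 (R 4.3.3); tests were two-sided, p-values were adjusted by Benjamini-Hochberg, and the threshold was 0.05, a fit also tested on simulated data. Exact permutation tests were two-sided and cannot go below p = 0.1. Figures used Python 3.11.15 and matplotlib 3.10.9.

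Names came from the platform annotation: 34921 probe sets had 1 symbol, 930 several and 9140 none. A gene was represented by its probe set of highest mean. Promoter windows came from RefSeq. Named were all member probe sets, Spi1, genes of smallest p per list and direction, and the 5 genes most like Scin; Capg 1450355_a_at and the values per pool of list genes were singled out after being seen. Members and lists were chosen with earlier results of these data known. The labels give pools of separate animals as replicates, and their number limits the precision. Alternatives were other normalisations, pseudocounts of 1 and 64, a filter at the 40th percentile, eBayes and weighting options, a replicate block and leaving out each pool.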

Additional observations from a re-analysis of the deposited data

How the results depend on the processing

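The Scin difference ranged from 1.29 to 1.76 over 9 alternatives with all pools. Over these and the 6 fits without 1 pool, the 5 brighter Gsn probe sets, both Capg probe sets and Spi1 kept their sign and did not pass limma's adjusted threshold. The Gsn difference on 1456312_x_at was -1.03 to -0.58 and that of Capg on 1447803_x_at -0.95 to -0.35 without 1 pool. Signs turned for Avil (-0.029 as deposited, and from -0.085 without wildtype pool 1 to 0.23 over the fits without 1 pool), Flii 1439356_at (0.071 without wildtype pool 2, down to -0.24), Vil1 (0.018 without knockdown pool 3) and the dim Gsn 1456568_at (-0.26 with a pseudocount of 1, -0.093 with array weights, and -0.16 to 0.31 without 1 pool, negative without wildtype pool 2 and knockdown pools 1 or 2, at -0.11, -0.16 and -0.084). The cause was not tested.

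Over all probe sets, limma called 0 to 2 without 1 pool (1, 2 and 1 without wildtype pools 1, 2 and 3, and 1 without knockdown pool 2), beside 0 with all pools. Of the 5 genes most like Scin, 2 were among the top 5 as deposited, 2 with median centring, 3 with the filter and 0 to 3 without 1 pool. The median of the bundling genes was 0.064 with median centring, 0.080 with the probe set of smallest p and -0.061 to 0.057 without 1 pool; that of the nucleation genes was -0.034, -0.19 and -0.10 to -0.037.

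Deviations of same-numbered pools from their group means correlated at 0.178, 0.061 and -0.039, the first being the highest of all pairs. Knockdown pool 3 correlated best with wildtype pool 2, at 0.154. With 3 pools per group, whose deviations sum to 0, these values cannot decide whether the numbers pair the pools. With a replicate block limma called 0 probe sets, and Gsn 1456312_x_at and Capg 1447803_x_at had adjusted p = 0.560 and 0.618. Dim probe sets (Vil1, Flii 1439356_at, Gsn 1456568_at) limit what can be seen.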
